A study of Homo sapiens with 3 samples.

Results

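ZNF genes of chromosome 19 are protein-coding genes whose symbol is ZNF followed by digits only. The rule gave 240 genes, out of 1451 protein-coding genes on the chromosome and 19974 on the autosomes and X. They were examined in Hi-C data, which measures how often distant stretches of DNA lie close enough in the nucleus to be joined, from HCT116 p53-/-, a human colorectal carcinoma line that lacks p53. The 3 groups, with 1 library each, all carried the p53 loss. They were the parental line (wild-type), a clone with an ORC2 deletion made by CRISPR/Cas9, and a clone of ORC2 rescue cells in which ORC2 was returned on a vector. The ORC2 protein belongs to the origin recognition complex, which loads the replicative helicase, and the comparison addresses chromosome structure that depends on it. Both altered lines are single clones, so clone and genotype cannot be told apart, and the loop table holds no value that could check the deletion.

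Most ZNF genes encode proteins with arrays of C2H2 zinc fingers, small zinc-binding folds that read DNA sequence. Many also carry a KRAB domain, which recruits the co-repressor TRIM28 and, through it, the histone methyltransferase SETDB1. Such proteins are known for silencing retroelements, and their genes multiplied by tandem duplication into dense arrays on chromosome 19, where the gene bodies often carry heterochromatin marks.

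The values come from the authors' deposited table of loops, pairs of sites in contact, which gives the position of both ends in hg38 and a class word for each loop. The classes are conserved gain (called gained), conserved lost (called lost) and not conserved. Which samples a gain or loss refers to is not stated in the sources used here, so no direction with respect to ORC2 is drawn, and not conserved is not read as unchanged. The table has no loop strength, no value per library and no read count. Depth is therefore unknown, and no difference between the conditions could be tested. Because the table is named for changed loops, a gene without a listed loop may still have loops. On chromosome 19 it listed 13839 loops, of which 74 were gained and 16 lost.

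ZNF genes were rarely found at listed loop ends. In the authors' deposited table, 32 of the 240 genes had a listed end on the gene body, each end taken as the first 5 kb inside the loop, and 208 had none. That is 13.3% (95% Wilson interval 9.61 to 18.2%), where all protein-coding genes of chromosome 19 together stood at 50.7% and those of all chromosomes at 49.6%. Among the 1211 other genes of the chromosome, 703 had a listed end, or 58.1% (55.3 to 60.8%). These intervals, which did not overlap, cover counting error only and treat neighbouring genes as independent, which they are not. ZNF genes on other chromosomes lay between, with 77 of 237 at a listed end, or 32.5% (26.8 to 38.7%). Other protein-coding genes on those chromosomes stood at 49.7% (49.0 to 50.5%).

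The share was also counted by gene length. ZNF genes had a median body of 23.1 kb, against 12.8 kb for other genes of the chromosome. Among genes of up to 10 kb, 5 of 28 ZNF genes (17.9%) and 255 of 471 other genes (54.1%) had a listed end. Above 40 kb the counts were 5 of 41 (12.2%) and 118 of 161 (73.3%). Among other genes the share was highest in the longest class, which was not so among ZNF genes. The intervals of both groups stayed apart in all 4 length classes.

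**Figure D1:**
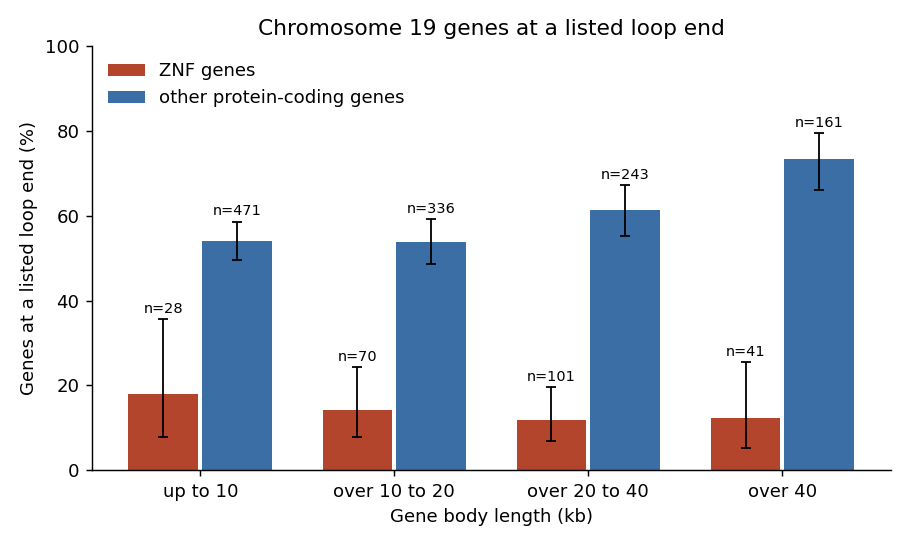
Share of chromosome 19 protein-coding genes at a listed loop end (vertical axis, percent) by gene body length (horizontal axis, kb), for ZNF genes and other genes, with the number of genes above each bar and 95% Wilson intervals for counting error. The share of ZNF genes lies between 11.9% and 17.9% in every class, and that of other genes between 53.9% and 73.3%.

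Most ZNF genes lie in arrays, whether or not they had a listed end. Joining ZNF genes separated by at most 200 kb gave 13 clusters of at least 5 genes, which held 216 of the 240. In these clusters 26 genes had a listed end (interval 8.35 to 17.1%), and outside them 6 of 24 did (25.0%), a share whose interval reached up to 44.9% and down into that of the clusters. The cluster spans also hold 48 protein-coding genes outside the naming rule, 10 of which had a listed end (20.8%, 11.7 to 34.3%). Of these 48, 16 have zinc finger names, such as ZFP28, ZSCAN1 and ZNF585A, and 4 of the 16 had a listed end. Among the 32 without such a name it was 6 (18.8%, 8.89 to 35.3%). Outside the spans 693 of 1163 other genes (59.6%, 56.7 to 62.4%) had one. The interval for the 32 genes overlapped that of the ZNF genes in clusters and lay below that of genes outside the spans. The 48 were split by symbol alone. The 32 include ZIK1 and FIZ1, which are zinc finger genes, and the 16 include ZNF470-DT and joined names such as ZNF559-ZNF177.

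Counted without regard to genes, the cluster spans were also poor in loop ends. They cover 11.2 Mb, or 19.1% of the 58.5 Mb between the first and the last gene of the chromosome, but held 323 of its 27678 listed loop ends (1.17%). This is 28.8 ends per Mb, against 578 per Mb outside. Reads that match several near-identical copies are hard to place in duplicated gene arrays. How the authors treated them is not given in the sources used here, and the part of this in the low counts was not tested.

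The longest run of neighbouring ZNF genes without a listed end went from ZNF101 to ZNF254 (chr19:19668153-24129968) and held 37 genes. It holds ZNF93 and ZNF91, whose proteins are known repressors of LINE-1 and SVA retroelements. Its first cluster, ZNF101 to ZNF486 (8 genes), and its last, ZNF492 to ZNF91 (7 genes), contained no listed loop end at all. The cluster between them, ZNF737 to ZNF98 (18 genes over 1890 kb), contained 8, none of them on a ZNF gene. Also without a listed loop end was ZNF565 to ZNF573 (24 genes, chr19:36182060-37779586), and the 6 genes outside the naming rule within it, 5 of them with zinc finger names such as ZFP14 and ZNF585A, likewise had none. In the cluster ZNF302 to ZNF792 (5 genes), 27 loop ends fell between the ZNF genes and none on them.

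A few further clusters held 1 loop or had 1 gene with listed ends. ZNF577 to ZNF331 (38 genes over 1780 kb) held 1 loop, of 324 kb, with its right end on ZNF331, an imprinted gene at the cluster's edge. ZNF283 to ZNF180 (20 genes) also held 1 loop, of 83.4 kb, joining ZNF230 to ZNF284, and ZNF554 to ZNF77 (5 genes) held 1, of 33.2 kb, joining ZNF555 to ZNF556. In ZNF653 to ZNF791, 1 of 25 genes had listed ends. This was ZNF653, the gene at the edge, whose 12 loops of 105 to 240 kb all led away from the cluster, with 3 reaching the erythropoietin receptor gene EPOR. The other 24 genes had none.

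**Figure D2:**
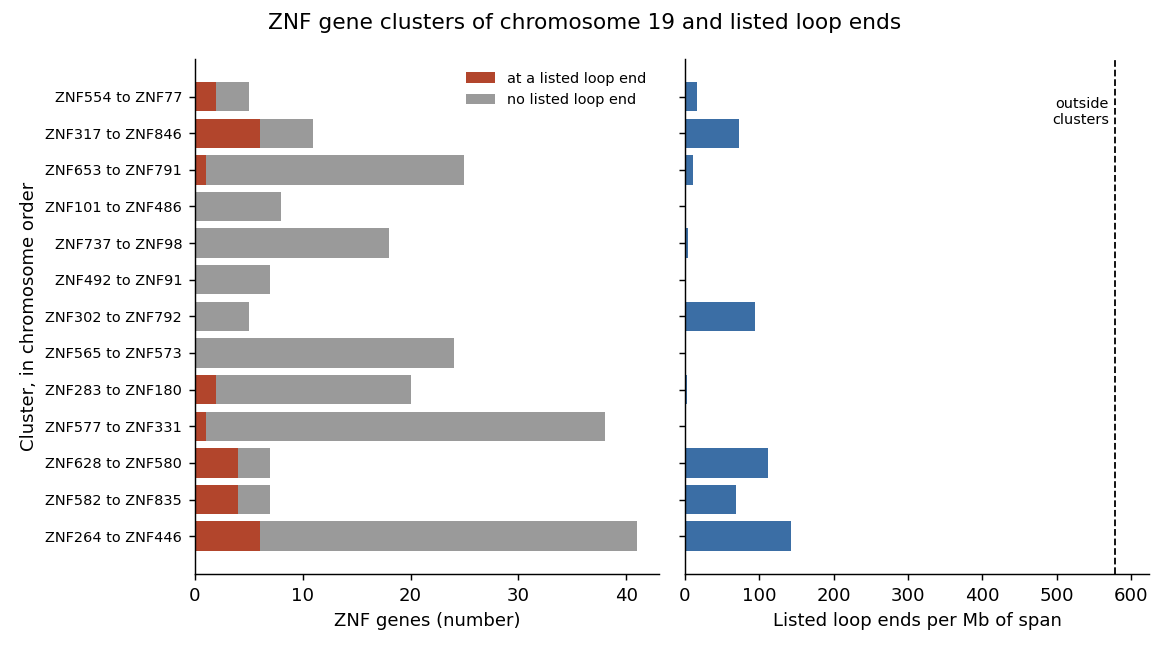
The 13 ZNF clusters of chromosome 19 in chromosome order (vertical axis), with the number of ZNF genes with and without a listed loop end (left) and listed loop ends of any kind per Mb of the span (right, dashed line at 578 per Mb outside the clusters). In 5 clusters, with 62 genes, no ZNF gene has a listed end, and the highest density, 142 per Mb in ZNF264 to ZNF446, lies below the dashed line.

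The last cluster before the chromosome end, ZNF264 to ZNF446 (41 genes, chr19:57191500-58489533), had the most loop ends, 184. They belonged to 92 loops of 32.8 to 520 kb, each with both ends inside the cluster. Of the 92, 89 had an end on ZSCAN1 or ZSCAN18, which lie within the cluster but outside the naming rule. Both are zinc finger genes of the SCAN domain family. An end on a ZNF gene was found for 52 of the 92. All 92 had an end on a ZNF gene, on ZSCAN1 or on ZSCAN18. ZNF606 had 30 loops (114 per 100 kb of gene body), of which 19 led to ZSCAN18 and 8 to ZSCAN1. ZNF550 had 14 and its neighbour ZNF549 had 10, all between 464 and 520 kb, and 13 and 9 of these ended on ZSCAN1. A loop end can meet both of these neighbours, and their loops came to 18 distinct ones, 6 of them shared. ZNF135 had 4 loops of 32.8 to 42.0 kb, all to ZSCAN18, and ZNF256 had 1, to ZSCAN1. ZNF329 had 2 loops to ZNF606. The other 35 ZNF genes had none, including ZNF274, whose protein is known to bind ZNF genes and recruit SETDB1 there.

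In 3 smaller clusters some loops also joined zinc finger genes to each other. In ZNF317 to ZNF846 (11 genes, 646 kb), ZNF846 had 14 loops, all by their right ends, of which 7 led to ZNF562 (124 to 143 kb) and 3 to ZNF561 (166 to 176 kb). ZNF317 had the longest loop of any ZNF gene other than ZNF536, at 640 kb (chr19:9152599-9793005). In ZNF628 to ZNF580 (7 genes, 169 kb), ZNF581 had 12 loops (113 per 100 kb) and ZNF580 had 3 (122 per 100 kb). Both bodies overlap, so a loop can count at both, and 6 loops of ZNF581 and 2 of ZNF580 ended on SSC5D. The ZNF580 body, of 2.47 kb, is shorter than the 5 kb loop end, so its high rate reflects a short body with few loops. Only 1 loop in this cluster, of 164 kb, joined 2 ZNF genes, ZNF581 and ZNF628. In ZNF582 to ZNF835 (7 genes), ZNF471 had 4 loops of 40.7 to 55.0 kb, all to the zinc finger gene ZFP28, and ZNF667 had 1, also to ZFP28.

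Leaving out ZNF536, 167 distinct loops had an end on a ZNF gene. Of these, 16 (9.58%, 5.98 to 15.0%) joined 2 ZNF genes, and 55 had the far end on a ZFP, ZSCAN, ZKSCAN or ZIM gene. Together 71 of the 167 (42.5%) linked a ZNF gene with another zinc finger gene of these names, 52 of them inside ZNF264 to ZNF446. For 43 the far end met no protein-coding gene. The cluster arrangement places zinc finger genes beside each other, so such pairs are close on the chromosome by position.

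ZNF536 held most of the loops. It encodes a zinc finger protein known to restrain neuronal differentiation, is not part of a cluster, and has a body of 488 kb (chr19:30225592-30713586). In the authors' deposited table, 364 of the 531 distinct loops at ZNF genes (68.5%) had an end there, all of them not conserved. Gained or lost loops among these 364 were 0 each, which allows a share of up to 0.824% for either class if loops are independent. Only 2 genes of the chromosome had more listed loops. Per length, ZNF536 had 74.6 loops per 100 kb of gene body. The median over the 32 ZNF genes with loops was 19.9. It was 78.3 over the other genes of the chromosome with loops and 50.5 over all protein-coding genes with loops. A 5 kb loop end that only touches a body counts in full, which raises the rate of short genes. The other genes of the chromosome had a median body of 12.8 kb, so their rate and that of ZNF536 are not directly comparable.

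Its loops fell into separate length groups. The shorter 216 spanned 7.95 to 129 kb, with a median of 45.4 kb, and 184 loops had both ends within the gene. The longer 148 spanned 1490 to 1600 kb, with no loop of an intermediate length. All 148 ran from left ends at positions 30647287 to 30713390, within the last part of the gene body, to right ends at 32172470 to 32268906. None of the far ends of ZNF536 loops met another protein-coding gene. Chromosome 19 listed 158 loops over 1 Mb, and 148 of them (93.7%) had an end on ZNF536. This block was cut at the gene body, and its last left end lay close to the end of the gene. Where the remaining loops over 1 Mb lie was not examined. Neighbouring loops of a block are not independent, so they amount to contact between the same pair of regions.

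**Figure D3:**
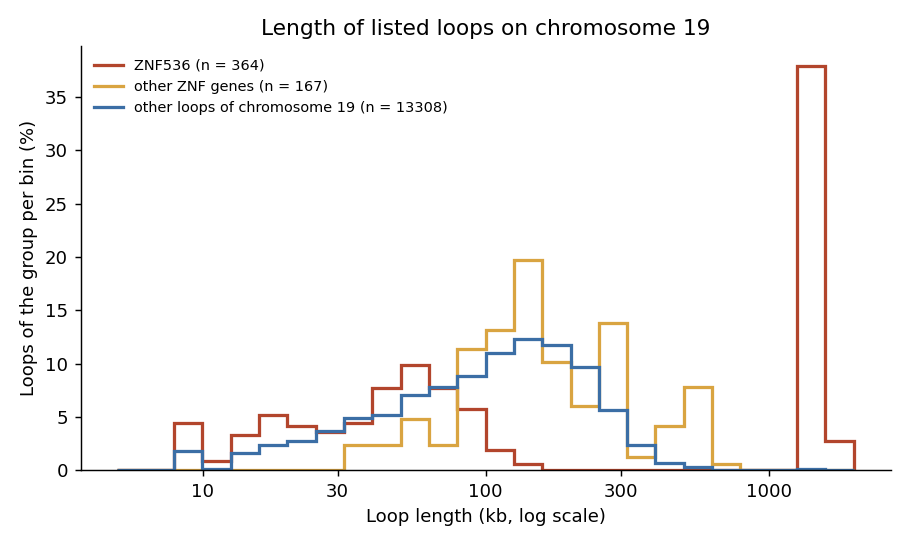
Length of listed chromosome 19 loops (horizontal axis, kb, log scale) as the percentage of each group's loops per bin (vertical axis), for ZNF536, the other ZNF genes and all loops with no end on a ZNF gene. The ZNF536 loops form a group up to 129 kb and a narrow peak at 1490 to 1600 kb, where the other groups have few or no loops.

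Loops at the other ZNF genes had a median length of 149 kb (order-statistic interval 138 to 161 kb), longer than the 109 kb (107 to 111 kb) of chromosome 19 loops with no end on a ZNF gene. With ZNF536 the median was 119 kb (98.0 to 140 kb), whose interval overlapped that of the other loops. The medians thus stood apart only with ZNF536 left out. The intervals treat loops as independent, which loops of the same gene are not, and they do not measure the spread over genes. Of the 167 loops at the other ZNF genes, ZNF606 had 30, ZNF541 had 24 and ZNF558 had 23.

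Outside clusters, ZNF558 had 23 loops of 251 to 297 kb, all by their left ends, and 14 of these led to the olfactory receptor gene OR1M1. The ZNF558 protein is a KRAB zinc finger repressor. ZNF541, a gene of meiotic germ cells, had 24 loops, of which 12 led to BICRA, a subunit gene of a BAF chromatin remodelling complex, and 4 to the sodium-calcium exchanger gene SLC8A2. ZNF333 had 8, ZNF575 had 3 and ZNF175 had 2. ZNF473, whose protein takes part in histone mRNA processing, had none.

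**Figure D4:**
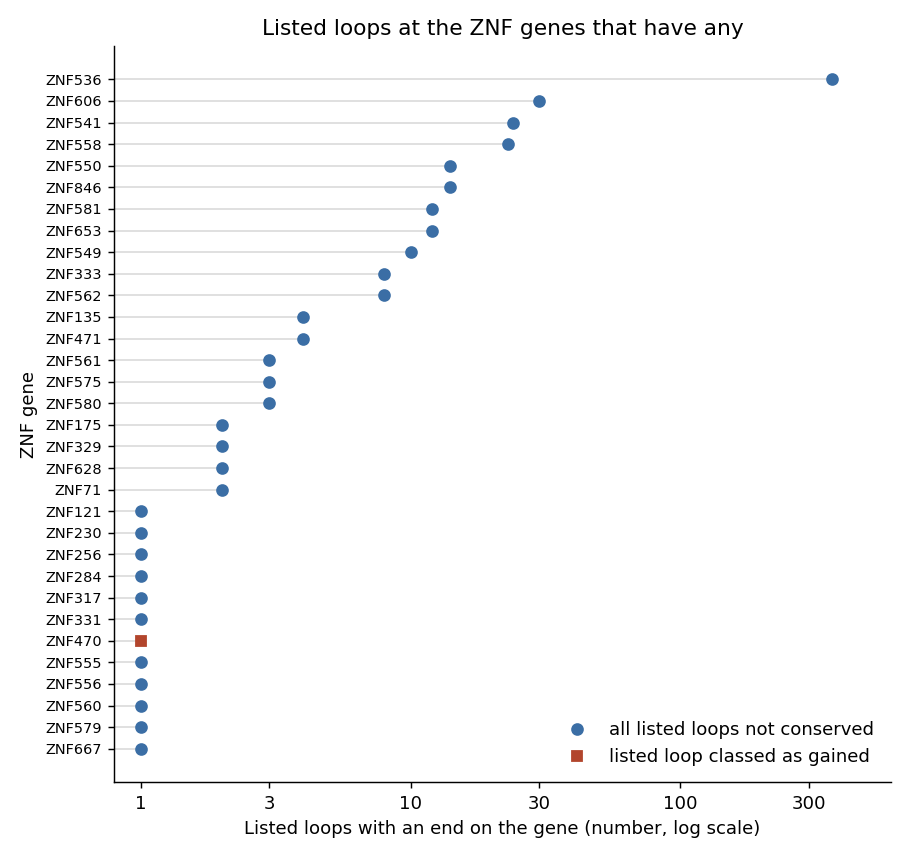
Number of listed loops with an end on each of the 32 ZNF genes that have any (horizontal axis, log scale), with squares for genes that have a gained loop. ZNF536 stands at 364, the next gene, ZNF606, at 30, and 12 genes have 1 loop, among them ZNF470 with its gained loop.

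Across the 32 genes, 12 had 1 listed loop, 9 had 2 to 4, 7 had 8 to 14 and 4 had more than 20. Loop ends on a gene were mostly of 1 side, both at ZNF genes and at other genes. In 14 ZNF genes all were left ends, in 14 all were right ends and in 4 both kinds occurred. Of the 703 other genes, 452 had ends of 1 side only and 251 had both. The 12 ZNF genes with 1 listed loop had a single end each, so they could show only 1 side. ZNF genes with loops had a median of 2.50 loops each and other genes 10.0, and the part of this in the sides was not tested. The annotated start site lay within a loop end in 15 of the 31 genes whose start site was known (48.4%, 32.0 to 65.2%), and in 435 of 589 other genes with a listed end (73.9%, 70.2 to 77.2%). The same difference in loops per gene applies here.

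Gained and lost loops were few at ZNF genes, as they were on chromosome 19 as a whole. In the authors' deposited table, 1 of the 32 genes with a listed end had a gained loop and 0 had a lost one, where 4.90% and 1.36% of all chromosome 19 genes at a listed end did, and 12.7% and 1.85% over all chromosomes. At the chromosome's share a group of this size would hold very few, so the counts do not set ZNF genes apart. Counted by loop, 1 of 531 was gained (0.188%, 0.0333 to 1.06%) and 0 of 531 lost, which allows a share of up to 0.565%. At other genes of the chromosome the shares were 0.535% (0.412 to 0.694%) and 0.153% (0.0942 to 0.248%). The former lay inside the interval at ZNF genes and the latter under the limit there. The groups of loops are not separate, since a loop can meet genes of both. The gained loop at a ZNF gene did so, with its other end on ZFP28. Of the 531 loops, 364 were at ZNF536, and the intervals and limit treat loops as independent, which those of a block are not. With ZNF536 left out, 0.599% (0.106 to 3.31%) of loops at ZNF genes were gained or lost.

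The gained loop was the only listed loop of ZNF470 (chr19:56567468-56582894), a gene in the cluster ZNF582 to ZNF835. It ran over 45.6 kb from 56539528 to 56585155, with its left end on ZFP28. A neighbouring gained loop shared that left end and ran 50.3 kb to 56589809, past the end of ZNF470. ZFP28 had 9 listed loops, and these 2 were the gained ones. No other gained and no lost loop had an end in a ZNF cluster of at least 5 genes. A dense group of gained loops lay just outside ZNF577 to ZNF331, at SPACA6, HAS1 and FPR2, and did not enter it.

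Zinc finger genes with names other than ZNF and the cofactors of KRAB proteins were counted in the same way. Of 11 chromosome 19 genes named ZFP, ZSCAN, ZKSCAN or ZIM with digits, 4 had listed ends (36.4%, 15.2 to 64.6%). That interval includes the 50.7% of all genes of the chromosome. It also overlaps the 9.61 to 18.2% of the ZNF genes, so it separates the 11 genes from neither. There were 62 loops at ZSCAN18, 47 at ZSCAN1, 9 at ZFP28 and 6 at ZIM2. Of 21 genes for KRAB cofactors and heterochromatin proteins, 8 had listed ends (38.1%, against 49.6% of all protein-coding genes) and 0 had a gained or lost one, where 12.7% and 1.85% of all genes at a listed end did. Nothing is read from a 0 among 8 genes. The histone methyltransferase gene EHMT2 had 158 listed loops, CBX5, which encodes HP1 alpha, had 69, and the maintenance methyltransferase gene DNMT1, on chromosome 19, had 69. TRIM28 and SETDB1 had none.

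The GC content of promoters, taken from 250 bases before to 50 after the start site in RefSeq sequences of GRCh38.p14, was slightly lower at ZNF genes. Its median was 60.2% over the 210 ZNF genes with a sequence (quartiles 56.3 and 64.3%) and 64.0% over 975 other genes of the chromosome (58.2 and 69.7%). It was 61.7% for the 31 ZNF genes with a listed end and 59.7% for the 179 without, with broadly overlapping quartiles.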

How the data were processed

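Hi-C was made with DpnII and biotin fill-in, per the labels' protocols. The submitters' processing notes name Bowtie, hg19 and hg38 without their roles. The authors deposited 1 class word per loop, and no source used here gives the caller, cut-offs or normalisation. Of 279669 rows, 49 had no class word and 2 were repeats, which left 279618 loops. The 6 compartment columns of a second table are named S1, S2 and S3, match no sample label and were not used, so compartment scores are not analysed here.

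Gene bodies came from RefSeq (GRCh38.p14). A gene was counted where its body overlapped a loop end, 5 kb inward from the listed position. Shares have 95% Wilson intervals and medians have exact order-statistic intervals, both for counting error only. A limit for a count of 0 uses 3 counts. Python 3.11.15, pandas 2.3.3 and scipy 1.17.1 were used, and the overlap step was tested on simulated data. Named genes are those with gained or lost loops, the 8 with most loops, the 5 with most per 100 kb, the most joined pairs, the longest loops and the first and last gene of each cluster. ZNF91, ZNF93, ZNF274, ZNF473, and genes with few loops named beside them, were added after their values were seen. The 10 genes with letters after the digits or joined names were outside the rule. The members and lists were chosen with earlier results of these data known.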

Additional observations from a re-analysis of the deposited data

How the results depend on the processing

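Of 54 values under alternatives, 37 stayed within 1.5 times a count or inside the interval of a share or median. With loops of at least 100 kb only, 21 ZNF genes (8.75%) and 46.4% of other chromosome 19 genes had a listed end, 0 ZNF genes had a gained or lost loop (0% of loops, 0 gained), 4.91% of loops joined 2 ZNF genes and the median length was 1500 kb. This setting removes loops by construction. It keeps the 148 ZNF536 loops of 1490 to 1600 kb, a range that holds the median of 1500 kb. The longest loop at another ZNF gene was 640 kb. Other genes stood at 61.0% with ends read 10 kb inward and at 65.1% with bodies widened by 5 kb, where 5.20% of loops joined 2 ZNF genes. With ZFP, ZSCAN, ZKSCAN and ZIM genes added, 2 genes had a gained or lost loop (2 gained), 15.7% of loops joined 2 such genes and the median was 97.9 kb. Without ZNF536, chosen after seeing the data, these were 9.58% and 149 kb. The cause of these shifts was not tested otherwise. ZNF genes stood below other genes in the share with a listed end under each of these settings. Joining at up to 100 or 500 kb gave 13 and 10 clusters. Compartment scores and zinc fingers per protein were not run, because the score columns match no sample label and no protein table was used. No paired analysis was possible because the 3 groups have 1 library apiece. Depth is unknown.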
